A study of Homo sapiens with 20 samples.

Results

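A set of 10 genes of the cadherin family was followed through 18 days in which neural progenitor cells were differentiated towards neurons: CDH1, CDH2, CDH4, CDH6, CDH7, CDH8, CDH10, CDH11, CDH12 and CDH13. They were found by symbol among the coding gene records of the expression table, keeping for each symbol the record with the highest mean, and they make up 10 of 20237 coding records and 10 of 38369 records in all. The progenitors were made from the established human embryonic stem cell line H1, so every day shares the genome of 1 line and no second line is present. On day 0 the cells were progenitors held with FGF, a growth factor that keeps them dividing. Differentiation followed withdrawal of FGF and addition of BDNF, a neurotrophic factor. The 20 samples comprise 3 cultures at each of days 0, 1, 2, 4, 11 and 18, and 2 at day 5, where another had been left out by the submitters as an outlier. Cells were replated at day 4, so that step and the change of culture surface cannot be told apart between days 4 and 5.

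The values are FPKM, fragment numbers divided by transcript length and library size, which allows levels to be compared between genes. The files hold 1 FPKM per gene and day, pooled over the cultures of the day. No spread between cultures, depth, error or p-value can therefore be given for any value here, and a difference between days has no replicate check. Changes are differences of log2(FPKM + 0.1), a scale that understates the change of low genes. "Rose" and "fell" are used for a change of at least 2-fold on that scale, and the yardstick is the share of all 14107 coding records with a mean of at least 0.1 FPKM that moved as far. Between days 1 and 2, a pair of days 1 day apart, the central 95% of records ran from -0.44 to 0.54 at means of 1 to 10 FPKM and from -0.24 to 0.34 at 10 to 100 FPKM. Summed FPKM over all records went down from 413978 at day 0 to 251156 at day 18, and the median coding record above 1 FPKM moved by -0.60, so changes are also given relative to that median (recentred).

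Cadherins are calcium-dependent adhesion proteins that join cells by binding cadherins of the neighbouring cell, mostly of their own kind. Inside the cell their tails hold beta-catenin or plakoglobin, which link through alpha-catenin to actin, and p120 catenins, which keep them at the surface. Type I members (here CDH1, CDH2 and CDH4) carry the classical adhesion motif, type II members (here CDH6, CDH7, CDH8, CDH10, CDH11 and CDH12) form a separate branch that is varied in the nervous system, and CDH13 has no cytoplasmic tail and is held by a lipid anchor. In the developing brain, CDH2 holds the neuroepithelium together, while type II cadherins mark regions and groups of neurons.

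From day 0 to day 18, CDH8 and CDH12 rose, CDH6 fell, and the other 6 genes above the minimum stayed within 2-fold. CDH1, the cadherin of epithelia, was at or near 0 throughout and is the 1 member below the minimum. Among all coding records, 10.6% rose and 28.2% fell over the same span, so the 2 risers and 1 faller of 9 members are counts to be read against a background in which 38.9% of records moved. The median member differed by 0.11 and the median coding record by -0.52. After recentring, CDH8, CDH10, CDH12 and CDH13 rose and CDH6 fell, against 19.3% and 12.1% of all coding records. The medians were then 0.71 and 0.08.

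**Figure D1:**
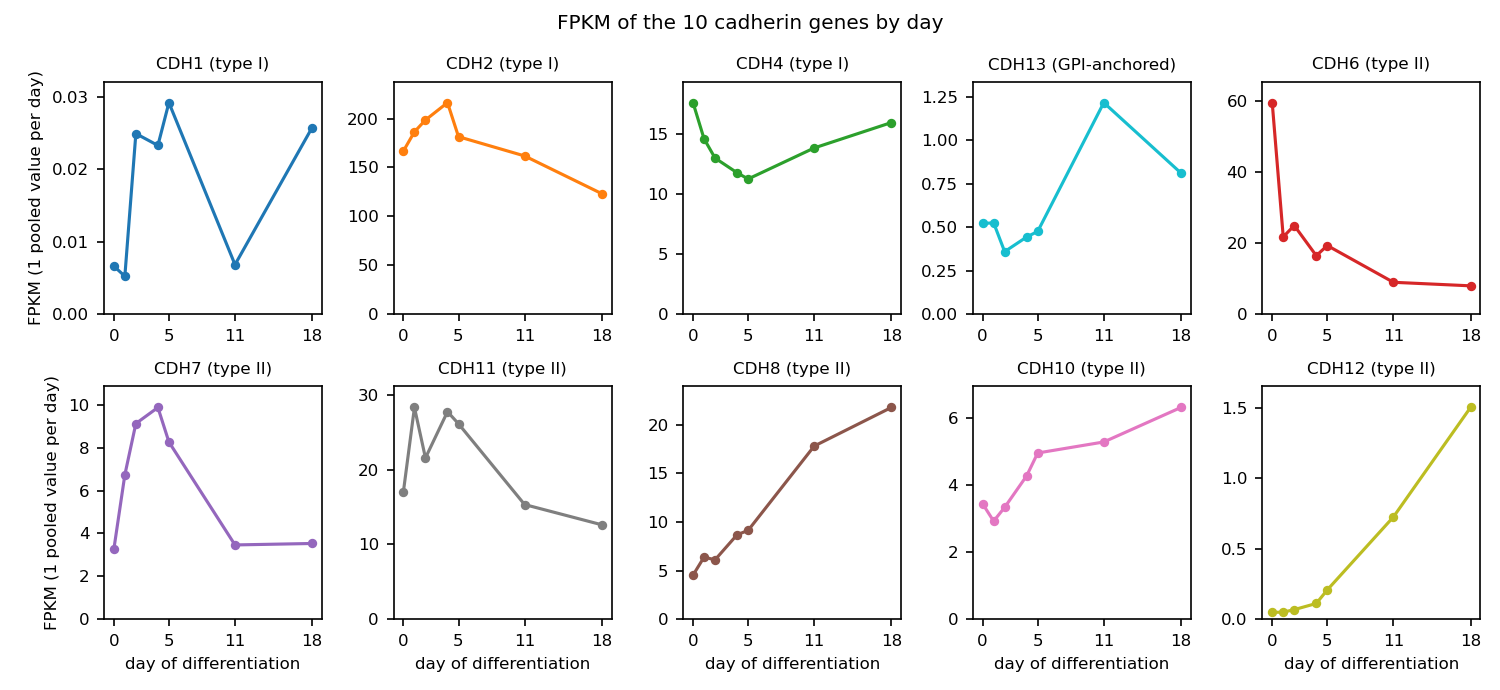
FPKM of each of the 10 cadherin genes (vertical axis, from 0, a scale of its own in each panel) against day of differentiation; each point is the authors' 1 pooled value for that day, with no error bar because no replicate value is held. CDH8, CDH10 and CDH12 end at their highest values, CDH6 starts at its highest, CDH7 peaks at day 4, CDH4 is lowest at day 5, and CDH1 never passes 0.0292 FPKM.

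CDH2 (N-cadherin, the main cadherin of neural progenitors and neurons; chr18:25530930-25757445, minus strand, hg19) was the highest member on every day. Its FPKM over the 7 days, in order, was 167, 186, 199, 216, 181, 162 and 123. It thus climbed to a top at day 4 and was lowest at day 18, a span of 1.75-fold, and no step reached 2-fold. At day 4 only 156 of the 20237 coding records lay above it. Antisense records share 16.9% of its exon bases but were listed at 0.11 FPKM or less on every day. Its day 18 value differed from day 0 by -0.44 as deposited and by 0.16 recentred, so the direction of this difference turns with the scaling. CDH2 supplied 61.1% of the summed FPKM of the 10 genes on day 0, 73.1% on day 4 and 63.6% on day 18.

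CDH4 (R-cadherin, a type I cadherin of the retina and brain; chr20:59827559-60512299, plus strand) ran the other way, with 17.6, 14.6, 13.0, 11.8, 11.2, 13.8 and 15.9 FPKM. It was highest at day 0, lowest at day 5 and climbed again afterwards, within 1.56-fold in all. From day 0 to day 18 it differed by -0.14 as deposited and by 0.46 recentred. With CDH2 at its top while CDH4 was near its floor, the ratio of CDH2 to CDH4 was 9.48 on day 0, 18.4 on day 4 and 7.73 on day 18. A noncoding record on the opposite strand, linc-CDH4-AS, shares 25.1% of the exon bases of CDH4 and had the same course (5.78, 3.55 and 5.26 FPKM on days 0, 5 and 18). The shared bases are 5.97% of the exon bases of linc-CDH4-AS. Counting by strand is not stated for these files, so reads from the shared bases cannot be told apart.

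CDH1 (E-cadherin; chr16:68771195-68869444, plus strand) was listed between 0.00524 FPKM at day 1 and 0.0292 at day 5. The authors' table marks it as having too few alignments for testing at all 6 steps, and 39.1% of its exon bases are shared with an antisense record. Differences between its days are not read. Its level stood far below that of CDH2 on every day. Of 8 epithelial markers, none of the 7 with a record of their own reached 1 FPKM at day 0 or day 18; the eighth, KRT19, shares a record with the catenin gene JUP. EPCAM, an epithelial adhesion protein, was at 0.526 and 0.407 FPKM on these days, and the keratin KRT18 at 0.57 and 0.0123. CDH3 (P-cadherin, the neighbour of CDH1 on chromosome 16) fell from 1.15 to 0.459 FPKM as deposited and was at -0.56 recentred.

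CDH6 (K-cadherin, a type II cadherin of kidney and of parts of the embryonic neural tube and neural crest; chr5:31193796-31325237, plus strand) was the second highest member at day 0. Its FPKM was 59.6, 21.8, 25, 16.5, 19.4, 9.01 and 8.01 on the 7 days. It was 2.73-fold lower after 1 day, stayed between 16.5 and 25 on days 2, 4 and 5, and fell again between days 5 and 11. By day 18 it was 7.45-fold lower than at day 0, a change of -2.88 as deposited and -2.28 recentred. Only 2.15% of coding records fell at least as far. Its share of the 10 genes' FPKM went from 21.8% to 4.13%, and its share of the type II members from 67.8% to 14.9%.

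Other groups of genes also went down from day 0 to day 18, as CDH6 did. Of 10 mesenchymal markers, the 9 with a record of their own summed to 674, 383 and 59.1 FPKM on days 0, 1 and 18. Of the 8 above the minimum 7 fell, while 28.2% of all coding records did. Among the 7 were COL3A1, a fibrillar collagen (238 to 30.5 FPKM), and TAGLN, an actin-binding protein of smooth muscle and fibroblasts (367 to 19.4). PDGFRB, counted among the 7, shares its record with CSF1R. ACTA2 was within 2-fold (1.5 and 0.736), DCN stayed below the minimum and COL1A1 was listed at 0 on all days. The 4 endothelial markers with a record summed to 26.6, 6.15 and 0.948 FPKM on days 0, 1 and 18. Most of the sum at day 0 was KDR, a receptor of vascular endothelial growth factor, which fell from 23.8 to 0.70 FPKM. Of the 3 above the minimum 2 fell, KDR and TEK, beside the same 28.2% of all coding records. CLDN5 stayed within 2-fold (0.259 and 0.135), and was at 0.661 on day 11. VWF, which defines endothelium, was at 0.0723 and 0.0107 on days 0 and 18. All 6 proliferation markers fell, with sums of 447, 235 and 79.3 FPKM on days 0, 1 and 18. Between days 5 and 11, however, their sum went up from 167 to 202 FPKM, while CDH6 fell. In bulk RNA, fewer cells of a kind and less RNA per cell cannot be told apart, and the part of these groups in the course of CDH6 was not tested.

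CDH7 (a type II cadherin of the hindbrain, spinal cord and migrating neural crest; chr18:63417488-63548174, plus strand) rose early and fell back. Its FPKM was 3.26, 6.74, 9.13, 9.88, 8.27, 3.46 and 3.53. The level at day 4 was the highest, 3.03-fold above the lowest, and days 11 and 18 were back near the FPKM of day 0. Day 18 differed from day 0 by 0.11 as deposited and by 0.71 recentred. CDH11 (OB-cadherin, a type II cadherin of mesenchyme and of brain; chr16:64980685-65155919, minus strand) had 17.1, 28.3, 21.6, 27.8, 26.1, 15.3 and 12.6 FPKM. It was also higher on days 1 to 5 than before or after, with its top at day 1, but no single step reached 2-fold. Its day 18 value differed from day 0 by -0.43 as deposited and 0.17 recentred, again a direction that turns with the scaling. Across the 7 days the log2(FPKM + 0.1) values of CDH7 and CDH11 correlated with Pearson's r of 0.86, and those of CDH2 and CDH11 with 0.87. These r values rest on 7 pooled points that share their libraries.

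CDH8 (a type II cadherin of cortical and striatal neurons; chr16:61687235-62070036, minus strand) was at 4.52, 6.37, 6.11, 8.68, 9.13, 17.8 and 21.8 FPKM. It was higher at each sampled day than at the one before except from day 1 to day 2, and stood 4.82-fold above day 0 at day 18 (2.24 as deposited, 2.84 recentred). Of all coding records, 3.71% rose at least as far. It moved from the fifth place among the 10 genes at day 0 to the second at days 11 and 18, and from 5.14% to 40.5% of the type II FPKM. The ratio of CDH6 to CDH8 was 13.2, 1.90, 0.506 and 0.368 on days 0, 4, 11 and 18, so the order of this pair turned between days 5 and 11.

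CDH12 (N-cadherin 2, a type II cadherin of brain; chr5:21750973-22853731, minus strand) was the lowest of the 9 members above the minimum at day 0 and had the largest change on this scale. Its FPKM was 0.048, 0.0491, 0.0672, 0.111, 0.207, 0.726 and 1.5. No day was lower than the one before. The change from day 0 to day 18 was 3.44 as deposited and 4.04 recentred, and 1.2% of coding records rose as far. The size depends on the pseudocount: with 1 in place of 0.1 the change was 1.26, smaller than those of CDH8 (2.04) and CDH6 (-2.75), and with 0.01 it was 4.71. The plain ratio of the 2 values was 31.3, but its early values rest on few reads, since the authors' table marks 3 of its 6 steps as having too few alignments. Even at day 18, CDH2 was 82.0-fold higher than CDH12.

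CDH10 (T2-cadherin, a type II cadherin of brain; chr5:24487210-24644911, minus strand) had 3.44, 2.92, 3.33, 4.28, 4.96, 5.29 and 6.32 FPKM. It was lowest at day 1 and highest at day 18, 1.84-fold above day 0. That difference, 0.86, is within 2-fold as deposited and past it recentred, at 1.46. Together CDH8, CDH10 and CDH12 held 2.94% of the summed cadherin FPKM at day 0 and 15.3% at day 18. Their pairwise correlations across the 7 days were 0.90 (CDH8 with CDH10), 0.92 (CDH10 with CDH12) and 0.97 (CDH8 with CDH12), and CDH6 correlated with CDH8 at -0.95. Of 7 measured neuron markers 6 also rose, beside 10.6% of all coding records, the exception being GAP43 (193 and 173 FPKM). The 7 markers summed to 360, 633 and 1299.6 FPKM on days 0, 5 and 18. The part of the neuron markers in these courses was not tested.

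The starts of these 3 genes are shown because they moved together, beside that of CDH2, which was highest but stayed within 2-fold. The sequences are RefSeq's on GRCh38.p14, from 250 bases before to 50 bases from the start on, 5′ to 3′ on the strand of the gene, with the most upstream listed start for each gene. Capitals mark the letters CCAAT or, on the other strand, ATTGG, a motif picked after the sequences had been seen. The windows are chr16:62036389-62036688 (CDH8), chr5:24644929-24645228 (CDH10), chr5:22853295-22853594 (CDH12) and chr18:28177081-28177380 (CDH2), all on the minus strand.
CDH8: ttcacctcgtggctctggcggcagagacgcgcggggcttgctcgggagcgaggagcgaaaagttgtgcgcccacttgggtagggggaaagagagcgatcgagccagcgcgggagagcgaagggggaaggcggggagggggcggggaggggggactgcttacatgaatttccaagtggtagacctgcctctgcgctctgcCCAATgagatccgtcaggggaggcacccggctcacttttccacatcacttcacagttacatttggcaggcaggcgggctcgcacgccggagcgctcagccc
CDH10: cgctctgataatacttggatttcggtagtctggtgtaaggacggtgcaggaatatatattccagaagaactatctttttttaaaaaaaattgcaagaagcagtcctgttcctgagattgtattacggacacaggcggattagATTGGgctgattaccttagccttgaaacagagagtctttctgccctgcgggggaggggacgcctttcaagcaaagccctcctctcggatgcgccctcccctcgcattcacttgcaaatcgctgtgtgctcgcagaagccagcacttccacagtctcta
CDH12: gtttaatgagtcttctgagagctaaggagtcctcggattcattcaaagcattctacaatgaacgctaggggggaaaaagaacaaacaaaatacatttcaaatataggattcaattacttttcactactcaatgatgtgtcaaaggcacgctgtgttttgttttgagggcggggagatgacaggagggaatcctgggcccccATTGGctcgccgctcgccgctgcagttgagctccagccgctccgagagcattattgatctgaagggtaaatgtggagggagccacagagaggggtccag
CDH2: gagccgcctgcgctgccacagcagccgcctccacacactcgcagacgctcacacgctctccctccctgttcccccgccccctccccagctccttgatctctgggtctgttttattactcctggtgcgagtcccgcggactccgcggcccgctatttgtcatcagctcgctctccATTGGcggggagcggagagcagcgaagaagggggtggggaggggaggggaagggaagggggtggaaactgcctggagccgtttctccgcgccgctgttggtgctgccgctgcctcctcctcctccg
Each of the 4 windows held 1 match, 51, 108, 49 and 76 bases before the start in the order printed. Of all 35116 windows in the table, 34.6% held the motif on either strand. Windows were listed for 6 of the members, and those of the other 2, CDH4 and CDH7, held none at their most upstream listed start. At their second listed start, that of CDH7 held 1, 56 bases before the start, and that of CDH4 none. The windows at the other listed starts of CDH8 and CDH12 held none, and that of CDH2 held 1. For CDH10 only 1 start was listed. The windows and the measured records are on different genome builds, and whether each window lies at the start of its record was not checked. The windows of CDH8 and CDH2 held 24 and 23 CG pairs and 64.7% and 67.0% G or C, while those of CDH10 and CDH12 held 12 and 10 CG pairs and 48.3% G or C each. The median window held 14 CG pairs and 58.7% G or C. GGGCGG (or CCGCCC) was found in the windows of CDH8, CDH12 and CDH2, as in 45.0% of all windows, and TATAAA (or TTTATA) in none of the 6, against 11.5%. A match is a run of letters, and whether a factor binds there was not measured.

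CDH13 (T-cadherin, the lipid-anchored member; chr16:82660578-83830197, plus strand) had 0.522, 0.526, 0.36, 0.445, 0.477, 1.22 and 0.813 FPKM. It stayed low until day 5, was highest at day 11 and lower again at day 18. From day 0 to day 18 it differed by 0.55 as deposited and by 1.15 recentred. Antisense records share 10.4% of the exon bases of CDH13 and 5.79% of those of CDH12, and both were listed at 0.0229 FPKM or less. Records in the range of CDH13 differed more widely between days 1 and 2 than higher ones did. The central 95% at means of 0.1 to 1 FPKM ran from -0.79 to 0.76. Imprecision and change between these days cannot be told apart in that range.

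**Figure D2:**
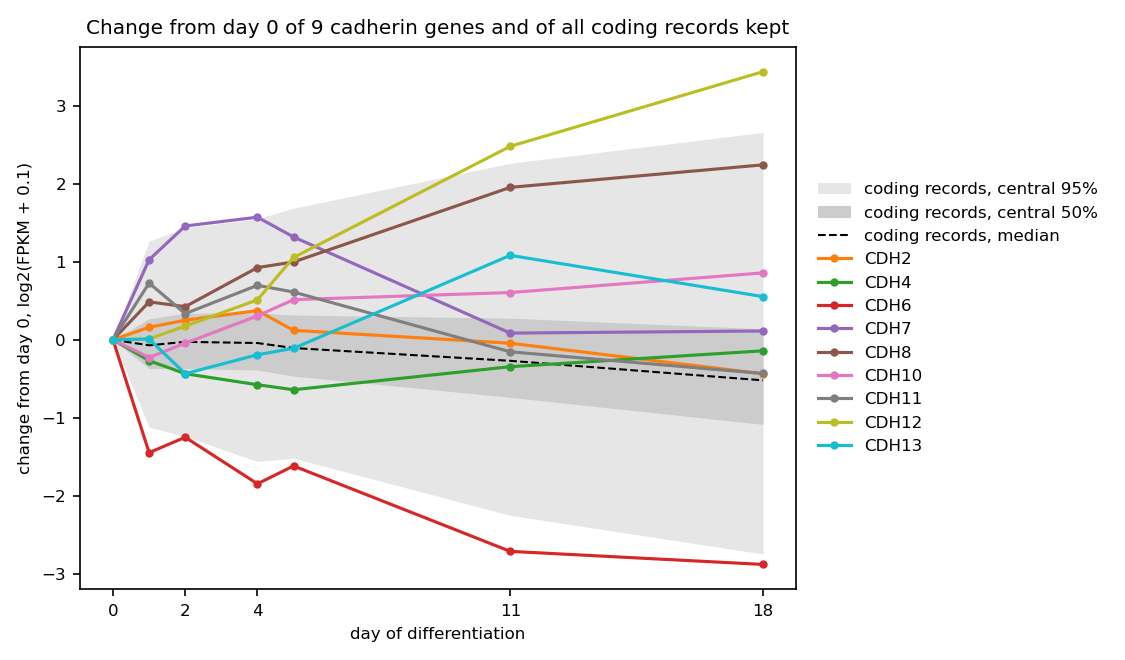
Change from day 0 in log2(FPKM + 0.1) (vertical axis) against day of differentiation for the 9 members above the minimum (lines), with the central 95% and 50% of all 14107 coding records kept (light and dark grey) and their median (dashed). CDH12 at 3.44 and CDH6 at -2.88 end outside the light band, which runs from -2.75 to 2.66 at day 18, and CDH8 ends inside it at 2.24.

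The steps between sampled days show when each gene moved. From day 0 to day 1, CDH7 rose by 1.03 and CDH6 fell by 1.45, while 8.29% of coding records moved at least 2-fold in either direction. CDH11 was higher by 0.73 and CDH8 by 0.49. No member reached 2-fold between days 1 and 2, 2 and 4, or 4 and 5, spans in which 0.567%, 1.29% and 0.539% of all coding records did. Over the replating at day 4 the largest member differences were 0.54 (CDH12) and -0.25 (CDH2 and CDH7).

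From day 5 to day 11, CDH12 rose by 1.42 and CDH13 by 1.19, and CDH7 fell by 1.23 and CDH6 by 1.1, against 7.13% of all coding records. Recentred, CDH8 joined the risers at 1.12 and CDH6 no longer passed, at -0.93. From day 11 to day 18 no member passed 2-fold before recentring, while 5.20% of coding records did. CDH12 was just under it at 0.96, passed recentred at 1.23, and had a plain ratio of 2.07. The first day and the span between days 5 and 11 therefore held all of the 2-fold member steps on the deposited scale. The sampled days are unevenly spaced, so sizes of steps are not rates.

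**Figure D3:**
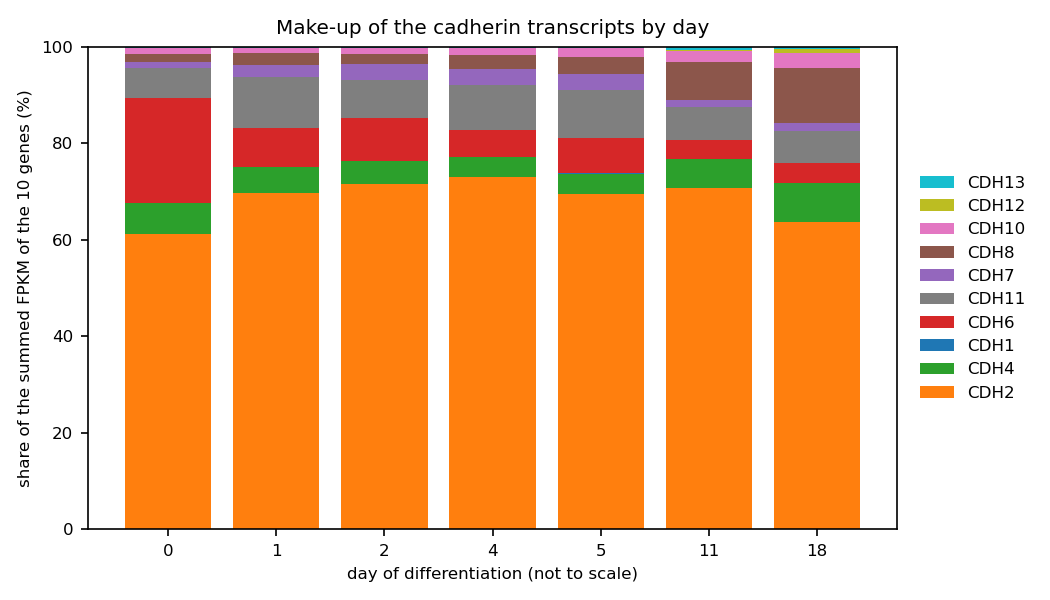
Share of the summed FPKM of the 10 genes held by each gene (stacked bars from 0 to 100%) on each day, with days spaced evenly. CDH2 holds 61.1% to 73.1%, CDH6 shrinks from 21.8% to 4.13%, CDH8 grows from 1.66% to 11.2%, and CDH1 is too small to see.

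By class, the type I members summed to 184 FPKM at day 0 and the type II members to 88.0, and all 10 to 273. The sum of all 10 was 296 at day 4 and 194 at day 18. Type II FPKM stood at 66.2 at day 1 and 53.8 at day 18. Within type II the leading gene was CDH6 at day 0 (67.8%), CDH11 at days 1, 4 and 5, CDH6 again at day 2, and CDH8 from day 11 on. The order at day 18 was CDH2, CDH8, CDH4, CDH11, CDH6, CDH10, CDH7, CDH12, CDH13 and CDH1. With 1 value per day, whether neighbours in this order differ beyond the spread of cultures cannot be said.

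The 5 chromosome 5 members of the classical family lie in a row: CDH18, CDH12, CDH10, CDH9 and CDH6. CDH9, a type II cadherin of hippocampal synapses that lies between CDH10 and CDH6, had 0.0521 FPKM at day 0 and 1.43 at day 18, much as CDH12 (0.048 and 1.5). CDH18 was at 0.954 and 1.5, and CDH6, the last of the row and the only gene of it on the plus strand, fell. On chromosome 16, CDH8 and CDH11 are neighbours on the same strand, 2.91 megabases apart, and had 4.82-fold higher and 1.35-fold lower day 18 values. CDH5 (VE-cadherin, the cadherin of endothelium), next to CDH11 on that chromosome, fell from 2.34 FPKM to 0.025. Both rows thus held genes that rose and genes that fell.

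Of 25 other genes of the cadherin superfamily, 19 passed the minimum; 6 rose, 3 fell and 10 stayed within 2-fold, with a median of 0.05, beside the 10.6% and 28.2% of all coding records that rose and fell. The risers were CDH9, CDH22 (0.03 to 0.301 FPKM), CDH23 of the hair-cell tip link (0.195 to 1.15), FAT4 (4.06 to 18.0) and DCHS2 (0.203 to 0.574) of the Fat and Dachsous families, and CLSTN3, a synaptic calsyntenin (4.17 to 20.3). The fallers were CDH3, CDH5 and FAT1, the largest change among them being that of CDH5. FAT1 fell from 75.0 to 36.7 FPKM as deposited and was at -0.43 recentred. The highest by mean was CLSTN1, a calsyntenin of axonal transport, at 52.1 FPKM on day 0 and 52.4 on day 18. Recentred, 8 rose and 1 fell, beside 19.3% and 12.1% of all coding records. The values of CDH22 and CDH5 rest on few reads, being marked as having too few alignments at 5 of the 6 steps, and those of CDH9 at 4.

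**Figure D4:**
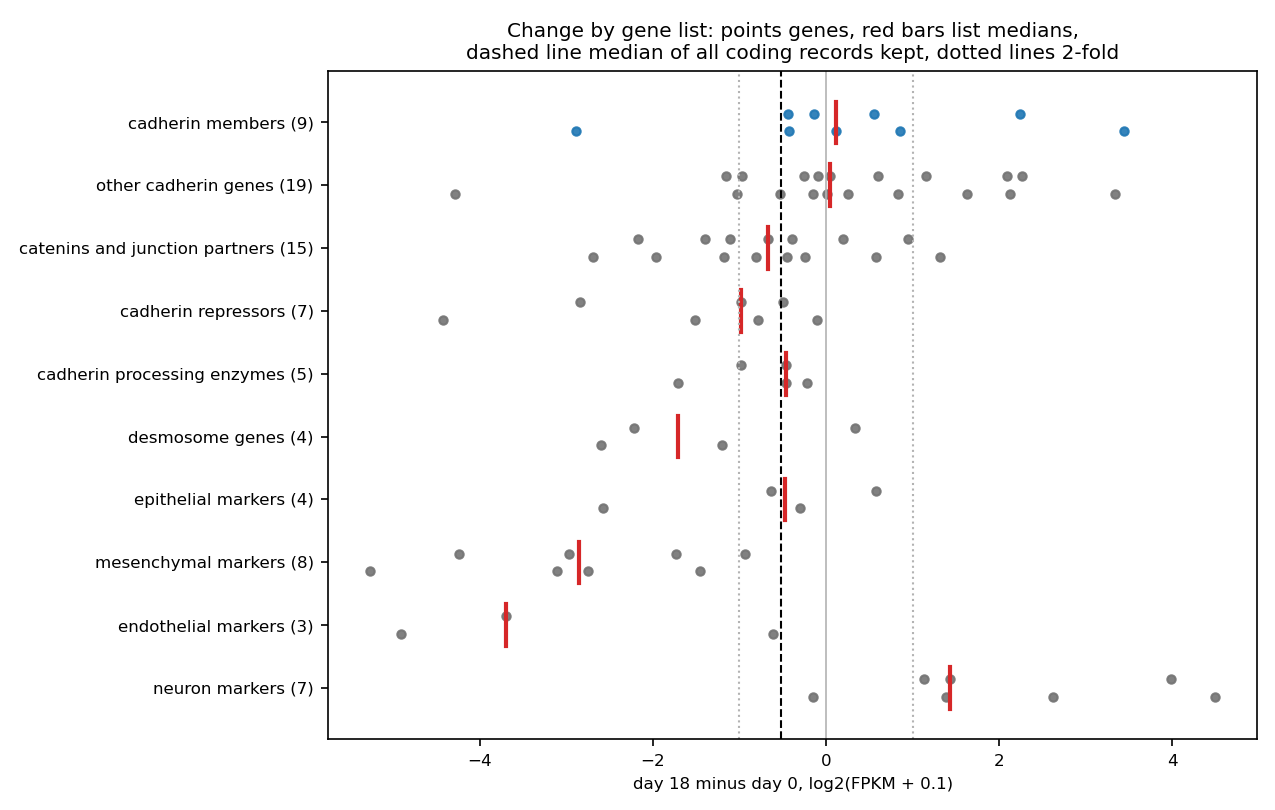
Difference between day 18 and day 0 in log2(FPKM + 0.1) (horizontal axis) for each gene above the minimum (points) in 10 lists, with the number of genes in brackets and the list medians as red bars; the dashed line is the median of all coding records kept (-0.52) and the dotted lines mark 2-fold. The cadherin members spread from -2.88 to 3.44 about a median of 0.11, the repressors lie at or below -0.10, and 7 of the 8 mesenchymal markers lie beyond the lower dotted line.

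Of 15 catenins and other junction partners, 6 fell, 1 rose and 8 stayed within 2-fold, beside 28.2% of all coding records that fell and 10.6% that rose. Recentred, 3 fell and 3 rose, beside 12.1% and 19.3% of all coding records. The median of the 15 partners was -0.67 as deposited and -0.07 recentred. CTNNB1 (beta-catenin, which binds cadherin tails and carries Wnt signals), the highest of them, fell from 245 to 113 FPKM as deposited and was at -0.51 recentred. CTNNA1 (alpha-E-catenin) fell from 139 to 61.1 FPKM, at -0.58 recentred, while CTNNA2 (alpha-N-catenin, its neural counterpart) rose from 8.80 to 22.1. The ratio of CTNNA1 to CTNNA2 was 15.8, 7.19 and 2.77 on days 0, 1 and 18, so CTNNA1 remained the higher of the pair. VCL (vinculin, which ties junctions to actin) fell from 116 to 17.9 FPKM and LIMA1, an actin-binding protein of junctions, from 34.2 to 7.53. The nectins PVRL2 (55.0 to 14.0) and PVRL3 (68.6 to 26.1) fell too, PVRL3 only on the deposited scale (-0.79 recentred). CTNND2 (delta-catenin, the neural p120 relative) was at 19.1 and 36.9 FPKM, a difference of 0.94 as deposited and 1.54 recentred. Records of JUP and CTNND1 are merged with those of KRT19 and TMX2, and their values cannot be assigned to 1 gene.

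Of 8 factors known to repress CDH1, SNAI1 fell from 2.57 to 0.274 FPKM, SNAI2 from 13.3 to 0.525 and TWIST1 from 1.21 to 0.36 (TWIST1 only as deposited, being at -0.91 recentred), none rose, and TWIST2 stayed below the minimum. Over the same span 28.2% of all coding records fell and 10.6% rose. TCF3, the highest of the 8 factors, was at 66.1 and 33.4 FPKM. ZEB2 was at 25.5 and 18.1 FPKM on days 0 and 18. ZEB1 (18.8 and 17.5) and TCF4 (18.2 and 10.5) were marked as failed by the authors' program at 5 and 6 of the 6 steps and are given as listed. Factors of these families bind E-boxes such as CAGGTG, which reads as CACCTG on the other strand. Of the 6 member windows listed at their most upstream start, 1, that of CDH4, held these letters, as did 20.6% of all windows. Whether that CDH4 window lies at the start of the measured CDH4 record was not checked.

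Among 5 enzymes that process cadherins, 1 fell: FURIN, which removes the prodomain of classical cadherins, from 7.43 to 2.20 FPKM. ADAM10, which sheds the ectodomain of CDH2, was at 34.4 and 17.4 FPKM, a difference of -0.98 (-0.38 recentred), and NCSTN, a gamma-secretase subunit and the highest of the list, at 39.8 and 28.8, with a failed estimate marked at 3 of the 6 steps. Of 7 desmosome genes, 4 passed the minimum and 3 of these fell. They were the desmosomal cadherins DSG2 (2.05 to 0.363 FPKM) and DSC2 (1.09 to 0.0966) and the plakophilin PKP2 (1.15 to 0.441, at -0.61 recentred), none of them above 3 FPKM on any day. DSC3 was at 0.0928, 0.605 and 0.144 FPKM on days 0, 4 and 18. Beside the enzyme and desmosome counts, 28.2% of all coding records fell from day 0 to day 18.

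The labelled cell type was read against 7 progenitor markers, all of which were above 1 FPKM on days 0 and 18. As deposited 2 rose, PAX6 (4.31 to 10.4 FPKM) and HES5 (1.95 to 20.0), and 1 fell, NES (513 to 180, at -0.91 recentred). The other 4 stayed within 2-fold, among them SOX2 (126 and 66.1 FPKM) and FABP7 (195 and 258). Beside these counts and those that follow, 10.6% of all coding records rose and 28.2% fell. Of 7 neural crest and glial precursor markers, 4 passed the minimum, 1 rose and 2 fell (none of them fell recentred), and SOX10 and FOXD3, which define neural crest, stayed below the minimum. TFAP2A rose from 0.0415 to 2.67 FPKM. The 7 genes summed to 9.40, 1.86 and 7.36 FPKM on days 0, 2 and 18, most of it from S100B, a calcium-binding protein of glia (8.68, 0.593 and 4.25 FPKM), and their part in the courses of CDH6 and CDH7 was not tested.

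Courses were also compared by Pearson's r of log2(FPKM + 0.1) over the 7 days. For 3 members the coding records with the most similar course were looked up among records with a mean of at least 1 FPKM. For CDH2 they were PGAP2, LRBA and RPS7 (r of 0.99 each), and 1087 records reached 0.90. For CDH12 they were ODZ1, CHL1 and SLITRK3, all at 0.996 or above, with 580 records at 0.90 or more. CHL1, an adhesion molecule of the L1 family, was at 0.458, 1.78 and 14.4 FPKM on days 0, 5 and 18, and SLITRK3, a synaptic adhesion protein, at 0.264, 0.591 and 3.89. For CDH6 they were EMP1 (39.4 to 0.806 FPKM), ARPC5 (87.1 to 37.3) and CD99 (182 to 42.2), with 2122 records at 0.90 or more. With 7 points many records follow each course.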

How the data were processed

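RNA-seq of polyadenylated RNA was read from the deposited tables. According to the methods of the study, TopHat2 (genome build hg19), Cufflinks and Cuffdiff2 were used by the authors for alignment, assembly and the estimation of 1 FPKM value from the cultures of each day. Versions are not given in the sources used here, nor is counting by strand. The deposited table holds 1 FPKM per record and day, and 0 columns with values of single samples, so depth per sample is unknown and no test was run. The authors' second deposited table compares adjacent days. Its fold changes, test statistics, p-values and q-values were not used, and its status words served only to mark records with too few alignments or a failed estimate.

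Members, lists and thresholds were chosen with earlier results of these data known. Each symbol took its coding record with the highest mean FPKM. Changes are differences of log2(FPKM + 0.1). Records under a mean of 0.1 FPKM were left out, and 2-fold was the threshold. Recentred changes subtract the median of coding records with a mean of at least 1. The text names all 10 members, each gene of the cadherin lists past 2-fold with the highest of each list, and 3 most similar records for the highest, most raised and most lowered member. Other genes were named for contrast after their values were seen. The neural crest and glial list leaves out 1 gene that is not reported here. Python 3.11.15, pandas 2.3.3, numpy 2.4.6 and matplotlib 3.10.9 were used.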

Additional observations from a re-analysis of the deposited data

How the results depend on the processing

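With 1 pooled value per day, no replicate could be left out. No paired analysis was possible because the files hold no values of single samples. The counts of members past 2-fold were 3 (day 0 to 18), 2 (day 0 to 1), 0 at each of the next 3 steps, 4 (day 5 to 11) and 0 (day 11 to 18). Of 49 such counts under other settings, 10 lay outside 1.5 times the count given. Recentring gave 5 members for day 0 to 18 and 1 for day 11 to 18. A pseudocount of 1 gave 1 for day 0 to 1 and 2 for day 5 to 11, and one of 0.01 gave 1 for day 11 to 18. A minimum mean of 1 FPKM, which leaves out CDH12 and CDH13, gave 2 for day 5 to 11. A fold of 1.5 gave 1 for day 2 to 4 and 1 for day 11 to 18, and a fold of 3 gave 0 for day 0 to 1 and 0 for day 5 to 11. CDH8 and CDH12 as risers and CDH6 as faller from day 0 to 18 held under each alternative run, except that CDH12 is below a minimum mean of 1 FPKM. No call changed sign, although 5 of 63 member differences, each within 2-fold, changed sign on recentring. Adding the second, merged record of CDH7 moved its level by less than 1% on every day.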

Other observations

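The catalogue holds 51 long noncoding RNA records whose names carry that of a member, of which 6 had a mean of at least 1 FPKM. The highest was linc-CDH10-7, at 47.8 FPKM on day 0, 24.9 on day 4 and 12.1 on day 18, while CDH10 itself was at 3.44, 4.28 and 6.32. The record linc-CDH6-7 starts at the same base of chromosome 5 on the other strand and had 16.2, 8.05 and 4.28 FPKM on these days, and reads from bases that the pair shares cannot be told apart without strand. Both lie within chr5:25909417-25911734 on hg19, between CDH10 and CDH9. The record linc-CDH6-10 was at 5.86 FPKM on day 0 and 6.89 on day 18, linc-CDH6-6 at 5.83 and 1.3, and linc-CDH8-2 at 2.98 and 1.14. The record linc-CDH8-BP starts beside CDH8 on the opposite strand and was low on every day. It was at 0.278, 0.195, 0.329, 0.372, 0.424, 1.37 and 1.41 FPKM, with its 2 highest values on the same days as those of CDH8.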
